A study of Mus musculus with 4 samples.

Results

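The 10 genes described here are germline and meiosis genes measured in mouse embryonic stem cells (mESCs): Dazl, Ddx4, Mael, Stk31, Stra8, Sycp1, Sycp3, Hormad1, Taf7l and Slc25a31. They were taken by gene symbol from a table of RNA-seq read counts that holds 37620 genes, and each symbol matched 1 Ensembl gene. RNA was sequenced from the WT_CTCF and MUT_CTCF lines, with 2 biological replicates of each. Both lines were derived from CTCF-EGFP-AID ESCs, in which the endogenous CTCF protein carries a degron tag and is degraded when auxin is added. A vector supplied wild-type CTCF to WT_CTCF mESCs. To MUT_CTCF mESCs it supplied CTCF mutated at T668, so that this residue cannot carry O-GlcNAc, a single sugar added to proteins inside the cell. The paper describes adding auxin to both lines so that the vector CTCF replaced the endogenous protein. All cells were grown in serum with LIF on gelatin-coated dishes. The labels of the RNA-seq libraries name no second clone of either line, so in these data a difference between clones and an effect of the mutation cannot be told apart. The comparison of MUT_CTCF with WT_CTCF mESCs asks whether these genes, which are largely kept silent outside germ cells, changed when CTCF lost its O-GlcNAc site.

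In the mouse, a set of genes needed for germ cell identity, for meiosis and for defence against transposons is shut off in the early embryo and stays off in somatic tissues. Many of these genes have promoters rich in CpG that are methylated in somatic cells. In mESCs they are also held down by a variant Polycomb complex, PRC1.6, whose subunits MGA and MAX bind the E-box and whose subunit E2F6 binds the E2F site. mESCs grown in serum transcribe several of them at a low level without entering meiosis. Stra8 differs in that it is induced by retinoic acid and by BMP signals and is best known as the switch for entry into meiosis.

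The promoters are shown first because most of the 10 genes hold the same short motif there. Because such genes are held down by a complex that binds the E-box, as described above, the motif may not be independent of their choice. All 10 were found in a RefSeq table of promoters (build GRCm38.p6), in windows of 300 bases that run from 250 bases before the gene start to 50 after it. For every gene only the first listed window was used. Stk31 and Hormad1 had 2 windows each. The letters CACGTG, the core of the E-box and its own reverse complement, were present in the windows of 8 of the 10 genes. In the table as a whole, 7.24% of 27025 promoters held them, as did 11.4% of the 9849 promoters whose observed over expected CpG ratio was above 0.6. Of the 10586 promoters found for genes tested for expression below, as all 10 were, 10.2% held them. Each E-box is printed below 5′ to 3′ on the strand of its gene, with the E-box in capitals and up to 15 bases on either side.
Ddx4 (chr13:112652319-112652354, minus strand): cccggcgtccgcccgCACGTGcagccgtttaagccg
Mael (chr1:166238947-166238982, minus strand): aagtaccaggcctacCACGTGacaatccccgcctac
Sycp1 (chr3:102936174-102936209, minus strand): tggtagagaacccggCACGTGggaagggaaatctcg
Sycp3, first E-box (chr10:88459508-88459543, plus strand): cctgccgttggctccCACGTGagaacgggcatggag
Sycp3, second E-box (chr10:88459529-88459564, plus strand): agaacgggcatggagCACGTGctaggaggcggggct
Stk31 (chr6:49395469-49395504, plus strand): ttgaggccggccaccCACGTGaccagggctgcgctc
Taf7l (chrX:134476519-134476554, minus strand): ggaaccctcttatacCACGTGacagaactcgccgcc
Slc25a31 (chr3:40708763-40708798, plus strand): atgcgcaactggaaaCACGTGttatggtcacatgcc
Hormad1, first E-box (chr3:95559605-95559640, plus strand): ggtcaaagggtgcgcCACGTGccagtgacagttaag
Hormad1, second E-box (chr3:95559642-95559676, plus strand): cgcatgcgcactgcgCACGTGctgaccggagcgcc

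Sycp3 and Hormad1 held 2 E-boxes each, and Dazl and Stra8 held none. The first base of the E-box lay between 20 and 223 bases before the gene start, the nearest in Hormad1 and the farthest in Mael. The core of the E2F site, searched as TCCCGC or GCGGGA so that both strands were covered, was found in the windows of 6 genes (Ddx4, Mael, Sycp1, Sycp3, Slc25a31 and Hormad1), all of which also held an E-box. Among all promoters 20.02% held an E2F core, among those of tested genes 35.3% did, and among the CpG-rich ones 43.0% did. The CpG ratio was above 0.6 in 9 of the 10 genes, from 0.666 in Sycp3 to 1.03 in Taf7l, and was 0.430 in Stra8. A ratio above 0.6 was found in 36.4% of all promoters and in 68.0% of those of tested genes. It was also found in 21 of 23 promoters of the repressors of germline genes described below. These matches describe letters in a window and no binding was measured at them here. The promoter of Ddx4 is printed as an example that holds both motifs, in capitals, with the E2F core first, and that of Stra8 as 1 of the 2 that hold neither and the poorest in CpG of the 10. Both are the 250 bases before the gene start.
Ddx4 (chr13:112652311-112652560, minus strand): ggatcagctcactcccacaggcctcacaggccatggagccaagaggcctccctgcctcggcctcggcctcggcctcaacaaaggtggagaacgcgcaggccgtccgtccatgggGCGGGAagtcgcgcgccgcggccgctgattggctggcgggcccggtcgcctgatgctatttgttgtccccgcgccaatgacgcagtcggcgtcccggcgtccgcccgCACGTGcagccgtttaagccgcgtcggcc
Stra8 (chr6:34920698-34920947, plus strand): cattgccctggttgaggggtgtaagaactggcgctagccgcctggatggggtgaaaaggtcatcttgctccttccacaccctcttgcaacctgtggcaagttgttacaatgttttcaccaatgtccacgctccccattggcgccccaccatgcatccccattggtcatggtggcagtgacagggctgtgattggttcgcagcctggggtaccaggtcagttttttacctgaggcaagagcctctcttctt

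**Figure D1:**
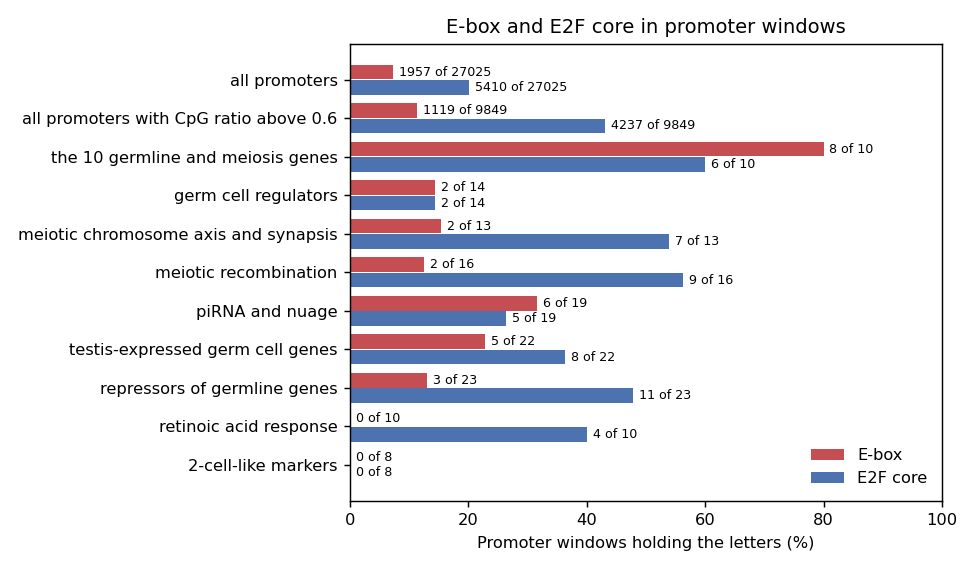
The bars give the percentage of promoter windows (horizontal axis, %) that hold an E-box (red) or an E2F core (blue), for all promoters, for CpG-rich promoters, for the 10 germline and meiosis genes and for the other gene lists, with the number of windows beside each bar. The E-box was found in 8 of 10 windows of the 10 genes, against 1957 of 27025 windows overall.

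The same search was made in the other gene lists described below. The E-box was found in 6 of 19 promoters of piRNA and nuage genes, in 5 of 22 of testis-expressed genes, and in 2 of 14, 2 of 13 and 2 of 16 of germ cell regulators, chromosome axis genes and recombination genes. The E2F core was found in 7 of 13 promoters of the axis genes, in 9 of 16 of the recombination genes, in 8 of 22 of the testis-expressed genes, in 5 of 19 of the piRNA and nuage genes, in 2 of 14 of the germ cell regulators and in 11 of 23 of the repressors of germline genes.

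The deposited counts summed to between 40524694 and 40977464 per library, so a gene with 0 reads could hold up to 0.0732 to 0.0740 CPM (counts scaled to library size) by sampling alone. These limits and all intervals cover counting error or the fitted spread only. Ctcf, counted without separating the endogenous from the vector transcript, stood at 18485 ± 259 normalized counts in WT_CTCF against 19058 ± 378 in MUT_CTCF mESCs (both SD, n = 2), a log2 fold change of 0.044 (edgeR adjusted p = 0.499). Its relative Ctcfl, the paralog expressed in male germ cells, had 130, 101, 122 and 120 reads (log2 fold change 0.061, adjusted p = 0.947). Markers of the labelled cell type were abundant: the 10 pluripotent stem cell markers, among them Pou5f1, Nanog and Sox2, summed to between 271101 and 274754 normalized counts in every library. In edgeR 1 of them (Sox2) was higher and 2 (Dppa5a and Utf1) were lower in MUT_CTCF mESCs at an adjusted p under 0.05. Of all tested genes 1.56% were higher and 1.61% lower at this threshold. Of the fibroblast markers, Lum, S100a4 and Fap had 0 reads in all 4 libraries. Others were expressed: Pdgfrb had 974 and 1006 reads in WT_CTCF and 939 and 1086 in MUT_CTCF mESCs, and Thy1 596 and 654 against 700 and 744. The summed level of this list lay between 1862 and 2114. Of the markers of gonadal somatic cells, Fshr had 0 reads and Cyp17a1 at most 2. Star had 440 and 357 reads in WT_CTCF and 420 and 364 in MUT_CTCF mESCs, and Cyp11a1 had 194 and 190 against 143 and 179. That list summed to between 742 and 806.

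All 10 genes were transcribed in every library, at levels that differed 62.6-fold between the highest and the lowest. Levels are compared between genes as RPKM, reads per kilobase of exon scaled to library size, as means over the 4 libraries. Stra8 was highest at 21.0 (lowest library 18.1, highest 24.0), above 80.2% of the 16243 tested genes with an exon length. Mael followed at 9.91 (8.96 to 11.6), Dazl at 6.75 (6.14 to 7.22) and Slc25a31 at 4.74 (3.93 to 5.24), and these 4 genes lay above the median of the tested genes, 3.92. The other 6 lay below it. Taf7l stood at 2.53 (2.38 to 2.61), Hormad1 at 2.41 (2.05 to 2.87), Ddx4 at 1.95 (1.66 to 2.33) and Stk31 at 1.52 (1.46 to 1.57). The 2 synaptonemal complex genes were lowest, Sycp3 at 0.505 (0.308 to 0.622) and Sycp1 at 0.336 (0.262 to 0.490). The level of Sycp3 is less certain, since 660 of its 1264 exon bases overlap Chpt1 on the opposite strand. How the counting treated reads there is not stated. The ranges over libraries overlapped between Taf7l and Hormad1, between Hormad1 and Ddx4 and between Sycp3 and Sycp1, so the order within these pairs is not resolved. All the other neighbours in this order were separated in all 4 libraries. In bulk RNA, a low level in all cells and a high level in a few cells cannot be told apart.

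**Figure D2:**
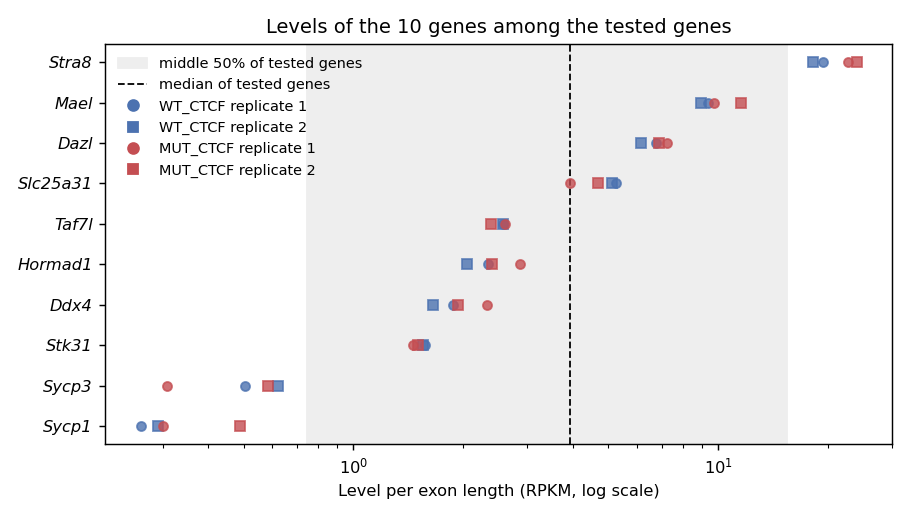
Each point is the level of a gene in 1 library in RPKM (horizontal axis, log scale), in blue for WT_CTCF and red for MUT_CTCF, with circles for replicate 1 and squares for replicate 2. The dashed line is the median of the tested genes (3.92) and the grey band holds those between the lower and upper quartiles. Stra8 lies to the right of the band, and Sycp1 and Sycp3 lie to its left.

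MUT_CTCF and WT_CTCF mESCs differed little in these genes. All 10 passed the filter on low counts, and Stra8 was the only one with an adjusted p under 0.05 in edgeR's quasi-likelihood test over 16264 genes. Thus 1 of 10 genes was higher at this threshold, where 1.56% of all tested genes were, and 0 of 10 were lower, where 1.61% of all tested genes were. At the criterion of the study, a fold change above 2 together with an unadjusted p under 0.05, 0 of the 10 genes were higher and 0 lower, against 0.947% and 0.357% of the tested genes. At an unadjusted p under 0.05 with no limit on the fold, edgeR called 1 gene (Stra8) higher and 0 lower, against 7.61% and 7.65% of all tested genes, and DESeq2 called 0 at the criterion of the study. Over all genes, 253 were higher and 262 lower at an adjusted p under 0.05, so that 49.1% of the calls were higher, and 63.1% when libraries were scaled by size only. Of the 10 fitted differences, 6 were positive and 4 negative. Their median log2 fold change was 0.17, beside a median of 0.0034 over all tested genes, of which 50.8% were positive. For 6 of the 10 genes both MUT_CTCF libraries exceeded both WT_CTCF libraries and for 2 they lay below, against 22.3% of the tested genes in the first case and 22.3% in the second. The counts overlapped for Sycp3 and Taf7l. The smallest two-sided p of an exact permutation test with 2 libraries against 2 is 0.333, and every call therefore depends on the variance shared across genes in edgeR.

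**Figure D3:**
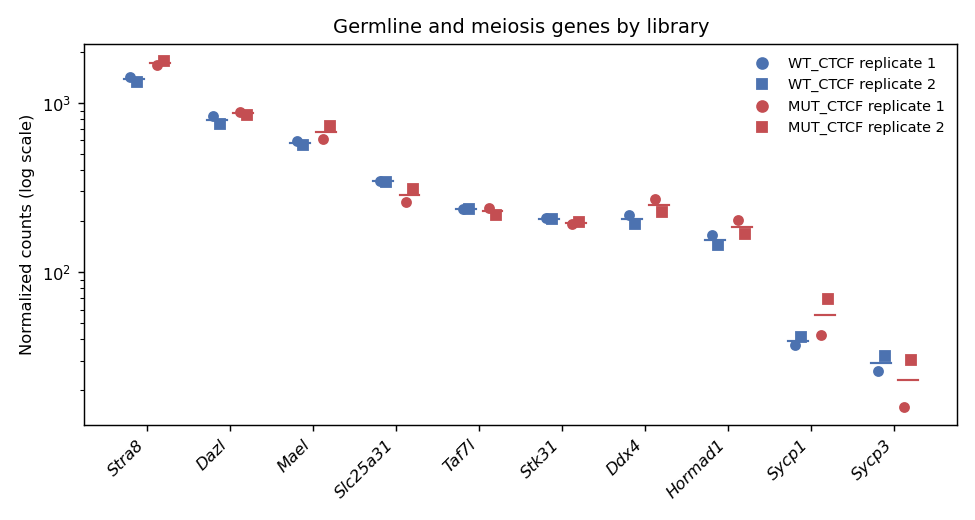
Normalized counts of the 10 genes (vertical axis, log scale, counts scaled to the mean library and not to gene length) are plotted for each WT_CTCF (blue) and MUT_CTCF (red) library, with circles for replicate 1 and squares for replicate 2, and horizontal bars mark the group means. Stra8, at the left, is the gene whose groups are farthest apart relative to the spread within them, with 1379 against 1711 normalized counts on average.

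Stra8 encodes a helix-loop-helix protein that germ cells switch on before they begin meiosis. The gene lies on chromosome 6 of mm9 (34870163 to 34889342, plus strand). It had 1422 and 1330 reads in WT_CTCF and 1677 and 1752 in MUT_CTCF mESCs. Both MUT_CTCF libraries were thus above both WT_CTCF libraries, and the gap between the groups was wider than either replicate pair. Normalized counts went from 1379 ± 64.4 to 1711 ± 69.2 (SD, n = 2 each), a 1.24-fold rise. The log2 fold change was 0.31 (standard error 0.071, 95% interval 0.17 to 0.45, adjusted p = 0.00495 in edgeR). Its size was stable, between 0.26 and 0.36 when any 1 library was left out, but the call was not. The call held without WT_CTCF replicate 1 and was lost without WT_CTCF replicate 2, MUT_CTCF replicate 1 or MUT_CTCF replicate 2. Each of these fits leaves 1 library in a group, and calls over all genes fell in them too. The call of Stra8 was also lost when genes were not filtered on low counts (adjusted p = 0.201 in edgeR). In that setting 29 genes were called in all, against 515 with the filter.

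Stra8 also supplied 36.6% of the summed normalized counts of the 10 genes. That sum was 4085 and 3843 in WT_CTCF and 4386 and 4554 in MUT_CTCF mESCs, a ratio of means of 1.13. Without Stra8 the sum was 2661 and 2510 against 2723 and 2793, a ratio of 1.07.

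Dazl, Ddx4 and Mael act on RNA in germ cells, and their fitted differences were positive without passing the test. Dazl encodes an RNA-binding protein that promotes translation of germ cell transcripts (chromosome 17, 50418719 to 50432924, minus strand). It had 831 and 753 reads in WT_CTCF and 895 and 841 in MUT_CTCF mESCs. The groups did not overlap, but MUT_CTCF replicate 2 exceeded WT_CTCF replicate 1 by few reads. This gave a log2 fold change of 0.13 (95% interval -0.06 to 0.31, adjusted p = 0.580).

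Ddx4, the mouse vasa gene, encodes a DEAD-box RNA helicase of the germ granules called nuage (chromosome 13, 113388541 to 113442518, minus strand). Its reads were 218 and 192 in WT_CTCF and 273 and 224 in MUT_CTCF mESCs. MUT_CTCF replicate 1 was the high library, and replicate 2 lay just above the upper WT_CTCF value. Its log2 fold change was 0.27 (95% interval -0.07 to 0.61, adjusted p = 0.485).

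Mael, a nuage protein needed for transposon silencing through piRNAs, lies on chromosome 1 (168131516 to 168168875, minus strand). It had 591 and 564 reads in WT_CTCF and 618 and 726 in MUT_CTCF mESCs. Here MUT_CTCF replicate 2 was the high library. The log2 fold change was 0.21, with a 95% interval of -0.0016 to 0.43 that only just includes 0 and an adjusted p of 0.333 in edgeR's test.

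Sycp1, Sycp3 and Hormad1 build the meiotic chromosome structure, and their differences pointed both ways with wide intervals. Sycp1 encodes the transverse filament of the synaptonemal complex, the protein zipper that holds paired chromosomes together (chromosome 3, 102622422 to 102740023, minus strand). It had 37 and 41 reads in WT_CTCF and 43 and 69 in MUT_CTCF mESCs. MUT_CTCF replicate 2 alone stood apart, since the other 3 libraries lay between 37 and 43. The log2 fold change of 0.52 had a 95% interval from -0.29 to 1.32 (adjusted p = 0.609), and it was 0.12 without MUT_CTCF replicate 2.

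Sycp3 encodes a protein of the lateral element of the same complex (chromosome 10, 87922314 to 87935981, plus strand). It had 26 and 32 reads in WT_CTCF and 16 and 30 in MUT_CTCF mESCs. MUT_CTCF replicate 1 was the low library, and the groups overlapped. For Sycp3 the log2 fold change was -0.34 (95% interval -1.46 to 0.79, adjusted p = 0.854) and turned to 0.053 without MUT_CTCF replicate 1. Of its 1264 exon bases, 660 are shared with Chpt1 on the opposite strand, and with the strand setting of the counting not stated, reads of the pair cannot be separated. None of the other 9 genes shares exon bases with another annotated gene.

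Hormad1 encodes a HORMA-domain protein of unsynapsed chromosome axes that is needed for recombination and its checkpoint (chromosome 3, 95363599 to 95391593, plus strand). It had 165 and 144 reads in WT_CTCF and 204 and 168 in MUT_CTCF mESCs. MUT_CTCF replicate 2 was barely above WT_CTCF replicate 1. Hormad1 thus had a log2 fold change of 0.26 (95% interval -0.13 to 0.66, adjusted p = 0.595).

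The remaining 3 genes, Slc25a31, Stk31 and Taf7l, had negative fitted differences that did not pass the test. Slc25a31 encodes the ADP/ATP carrier of the mitochondria of male germ cells (chromosome 3, 40512777 to 40529515, plus strand). It had 347 and 339 reads in WT_CTCF and 263 and 308 in MUT_CTCF mESCs, so both MUT_CTCF libraries were below both WT_CTCF libraries, replicate 1 the most. Its log2 fold change was -0.27 (95% interval -0.56 to 0.021, adjusted p = 0.382).

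Stk31 encodes a Tudor-domain protein with a kinase-like domain (chromosome 6, 49345603 to 49419500, plus strand). It had 207 and 204 reads against 194 and 197, the tightest replicates of the 10 genes in MUT_CTCF mESCs. Though the groups did not overlap, the log2 fold change was only -0.077 (95% interval -0.43 to 0.28, adjusted p = 0.902).

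Taf7l, on the X chromosome (130994657 to 131011029, minus strand), encodes a germ cell paralog of the TFIID subunit TAF7. It had 235 reads in each WT_CTCF library and 241 and 217 in the MUT_CTCF libraries, which lay on either side of the WT_CTCF value. The log2 fold change was -0.043 (95% interval -0.38 to 0.29, adjusted p = 0.945), and 0.020 without MUT_CTCF replicate 2.

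The precision of these values followed the number of reads. The standard error of the log2 fold change was 0.071 for Stra8 and 0.093 for Dazl, below the median of all tested genes (0.115), and reached 0.40 for Sycp1 and 0.56 for Sycp3. For 8 of the 10 genes the 95% interval lay within a 2-fold change in either direction. The intervals of Sycp1 and Sycp3 reached past a doubling and past a fall to 0.5 of the level, respectively, so changes of that size could not be told from none at this depth. The MUT_CTCF library that was farther from the WT_CTCF libraries was not the same from gene to gene: replicate 1 for Dazl, Ddx4, Hormad1, Slc25a31 and Stk31, and replicate 2 for Stra8, Mael and Sycp1.

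**Figure D4:**
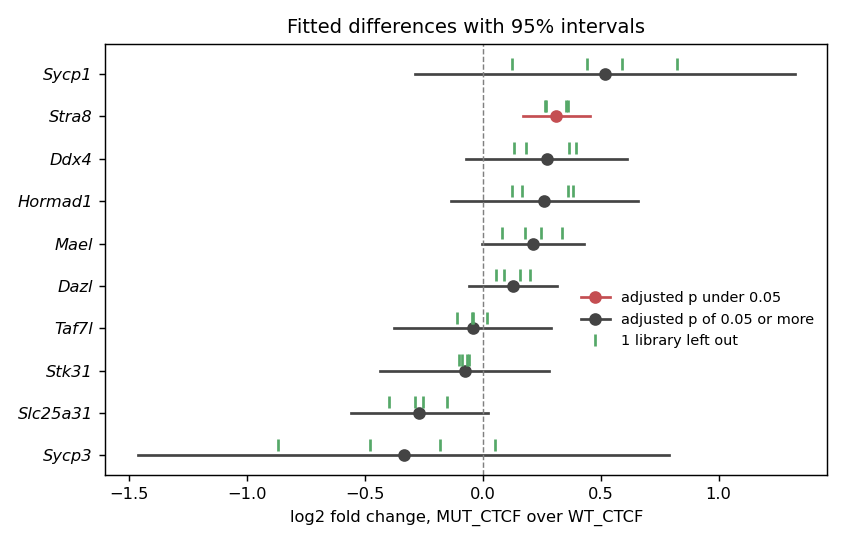
Points are log2 fold changes of MUT_CTCF over WT_CTCF mESCs (horizontal axis) with 95% intervals as lines, from edgeR's quasi-likelihood fit, and green ticks are the values with 1 library left out. Stra8 (red) is the gene with an adjusted p under 0.05, and ticks of Sycp3 and Taf7l fall on both sides of 0.

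The other germline genes also had a small median difference, with a wider range. They were described with 5 lists that hold 107 genes: germ cell regulators, meiotic chromosome axis and synapsis, meiotic recombination, piRNA and nuage, and testis-expressed germ cell genes. Of these, 90 were tested, and 56 had positive and 34 negative differences (median log2 fold change 0.049, range -0.72 to 1.82). The ends of the range, Hspa1l and Meiob, rest on few reads, with standard errors of 0.59 and 0.85. Over all tested genes 50.8% were positive and the median was 0.0034. At an adjusted p under 0.05, 4 were higher and 1 was lower, against the 1.56% and 1.61% of all tested genes. At the criterion of the study 1 was higher and 0 were lower, against 0.947% and 0.357% of all tested genes. Both MUT_CTCF libraries were above both WT_CTCF libraries for 25 of the 90 and below them for 7, against 22.3% of all tested genes in each direction.

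Germ cell regulators had 18 of 21 genes tested, 10 with positive and 8 with negative differences, and 1 that rose. It was Sohlh2, a helix-loop-helix factor of early spermatogonia and oocytes, with 5534 and 5369 reads in WT_CTCF and 6312 and 5994 in MUT_CTCF mESCs (log2 fold change 0.17, adjusted p = 0.00932). The next smallest p-values belonged to Nanos3, which maintains primordial germ cells (169 and 163 reads against 126 and 134, log2 fold change -0.36, adjusted p = 0.446), and Dnd1 (0.12, adjusted p = 0.599).

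The axis and synapsis list had 14 of 17 genes tested, 10 with positive and 4 with negative differences. Stag3, the meiotic cohesin subunit, rose, with 2952 and 3068 reads in WT_CTCF and 3312 and 3543 in MUT_CTCF mESCs (log2 fold change 0.18, adjusted p = 0.0363, but 0.148 in DESeq2). Hormad2, the paralog of Hormad1, had 415 and 418 reads against 534 and 503 (log2 fold change 0.31, adjusted p = 0.168), and Sun1 had a log2 fold change of 0.062 (adjusted p = 0.393).

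Of the recombination genes 17 of 19 were tested, 12 with positive and 5 with negative differences, and 0 passed an adjusted p under 0.05 in edgeR. At an unadjusted p under 0.05, edgeR called 2 of the 17 higher, where 7.61% of all tested genes were. Meiob, a single-strand DNA-binding protein of meiotic recombination, met the criterion of the study with 1 and 9 reads in WT_CTCF and 11 and 25 in MUT_CTCF mESCs (log2 fold change 1.82, standard error 0.85, adjusted p = 0.294). It rests on few reads, and DESeq2 did not call it. Rec114 (0.19, adjusted p = 0.300) and Hfm1 (0.84, adjusted p = 0.494) followed.

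Of the piRNA and nuage genes 21 of 22 were tested, 11 with positive and 10 with negative differences. Tex19.1, a placental and germ cell protein that restrains transposons, fell, from 13301 and 13064 reads in WT_CTCF to 11544 and 11974 in MUT_CTCF mESCs (log2 fold change -0.17, adjusted p = 0.000403). Ddx25, a testis helicase related to Ddx4, had a log2 fold change of 0.32 (adjusted p = 0.200), and Piwil2, a piRNA-binding protein, of 0.11 (adjusted p = 0.376).

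The testis-expressed list had 20 of 28 genes tested, 13 with positive and 7 with negative differences, and 2 rose. Tex14, a protein of the bridges between germ cells, had 1115 and 1128 reads in WT_CTCF and 1383 and 1408 in MUT_CTCF mESCs (log2 fold change 0.31, adjusted p = 0.0109). Rbm44, a bridge-associated RNA-binding protein, had 304 and 348 against 512 and 390 (log2 fold change 0.46, adjusted p = 0.0443, but 0.255 in DESeq2 and 0.0516 when libraries were scaled by size only). Tuba3b had a log2 fold change of 0.18 (adjusted p = 0.129).

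Of the 107 genes in these lists, 17 did not pass the filter on low counts. The following were chosen among them after their values were seen. Tnp1, Pgk2, Catsper1, Tex13a and Nanos2 had 0 reads in all 4 libraries, and Prm1 and Acrv1 had 1 read each in total. Among genes of meiosis itself, Sycp2, the partner of Sycp3, had 1, 0, 2 and 0 reads, and Spo11, which makes the breaks that start recombination, had 1, 7, 0 and 3. A difference between the lines was not detectable for these genes at this depth.

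**Figure D5:**
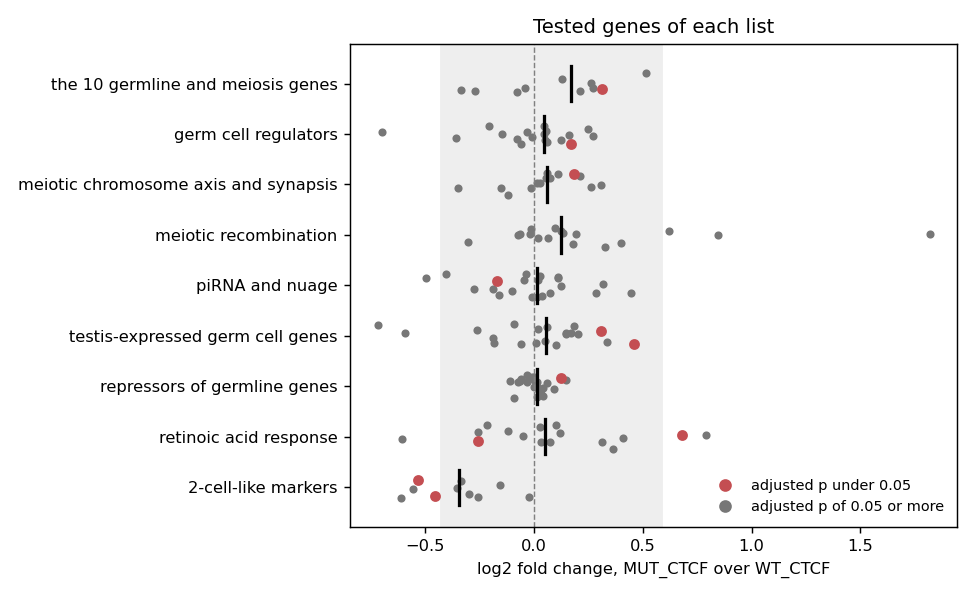
Each point is the log2 fold change of 1 tested gene, MUT_CTCF over WT_CTCF mESCs (horizontal axis), by gene list, with genes at an adjusted p under 0.05 in red and list medians as black lines. The grey band runs from the 5th to the 95th percentile of all tested genes (-0.43 to 0.59). All 10 germline and meiosis genes lie inside it, and all 10 tested 2-cell-like markers lie below 0.

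The repressors of germline genes were expressed at nearly equal levels in the 2 lines. All 25 that matched were tested, with log2 fold changes between -0.11 and 0.15, 15 of them positive and 10 negative. At an adjusted p under 0.05 in edgeR 1 was higher and 0 were lower, against 1.56% and 1.61% of all tested genes. Ehmt2, the histone H3K9 methyltransferase G9a, rose, with 10277 and 10434 reads in WT_CTCF and 10935 and 11698 in MUT_CTCF mESCs (log2 fold change 0.12, adjusted p = 0.0326, but 0.136 in DESeq2 and 0.0553 in edgeR's exact test). Dnmt3a, a de novo DNA methyltransferase, had a log2 fold change of 0.15 (adjusted p = 0.113), and Wdr5 of -0.062 (adjusted p = 0.223).

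Genes of the retinoic acid response, the signal known to induce Stra8, were all 16 tested, 10 with positive and 6 with negative differences and a median of 0.052. At an adjusted p under 0.05 in edgeR 1 was higher and 1 lower, against 1.56% and 1.61% of all tested genes. Tgm2, a transglutaminase, rose, with 376 and 373 reads in WT_CTCF and 570 and 635 in MUT_CTCF mESCs (log2 fold change 0.68, adjusted p = 0.000137). It shares 370 of its 4608 exon bases with Rprd1b and 633 with a processed transcript, both on the opposite strand. Cdx1, a homeobox gene of the posterior embryo, fell, with 4393 and 4102 against 3471 and 3673 (log2 fold change -0.26, adjusted p = 0.000485). Meis2 had a log2 fold change of -0.21 (adjusted p = 0.459). In these 7 lists together, 8 of 130 tested genes were called at an adjusted p under 0.05 in edgeR. Of the 8, 5 passed in DESeq2 and 0 passed in edgeR without a filter on low counts. In that setting 29 genes were called over all genes, and 15 of the list genes had an unadjusted p under 0.05. The 8 calls were also lost without MUT_CTCF replicate 1 or 2, fits with 1 library in a group where calls over all genes fell too. With WT_CTCF replicate 1 or replicate 2 left out the calls of Sohlh2, Stag3, Tex14 and Ehmt2 were lost too, as were those of Rbm44 and Cdx1 without WT_CTCF replicate 1.

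Markers of the rare 2-cell-like cells in mESC cultures were also compared. All 10 of the matched markers were tested and had negative differences, their median being -0.34 on the log2 scale, and 8 of them were lower in both MUT_CTCF libraries than in either WT_CTCF library, as were 22.3% of all tested genes. Of the 10, Zscan4d and Gm5662 fell at an adjusted p under 0.05 in edgeR, where 1.61% of all tested genes did. The summed normalized counts of the list were 3584 and 3489 in WT_CTCF and 2891 and 2646 in MUT_CTCF mESCs. Members of these multicopy families share sequence, so single genes are uncertain. Of the 8 gonadal somatic markers tested, 3 had positive and 5 negative differences and 0 passed an adjusted p under 0.05 in edgeR. At an unadjusted p under 0.05 in edgeR 1 of them was higher, where 7.61% of all tested genes were. The higher gene was Foxl2, with 12 and 7 reads in WT_CTCF and 28 and 24 in MUT_CTCF mESCs (log2 fold change 1.43, adjusted p = 0.299 in edgeR). It met the criterion of the study, by which 0.947% of all tested genes were higher and 0.357% lower. Of the 5 fibroblast markers tested, 3 had positive and 2 negative differences, and Col3a1 met that criterion downward, with 26 and 23 against 12 and 5 reads (log2 fold change -1.52, adjusted p = 0.288). The part of these marker genes in the germline values was not tested.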

How the data were processed

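RNA-seq counts of 4 libraries, 2 per line (WT_CTCF and MUT_CTCF mESCs), were grouped by the sample labels. The authors trimmed reads with Trim Galore 0.4.4, aligned them to mm9 with STAR, counted uniquely mapped reads per gene with HTSeq-count 0.9.1, and deposited these counts without normalization. The gene annotation and strand setting of the counting are not given in the sources used here. A second deposited table holds the authors' own edgeR comparison (log fold change, average log CPM, p-value and FDR) and was not used.

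Gene names and exon lengths were taken from GENCODE M1 (mm9), which named 37205 of 37620 identifiers. Genes were filtered with filterByExpr (minimum count 10), which kept 16264 genes and over 99.9% of counts, scaled by TMM (factors 0.994 to 1.01) and tested with glmQLFit and glmQLFTest in edgeR 4.0.16 (R 4.3.3), and p-values were adjusted by Benjamini-Hochberg over these genes. The common dispersion was 0.00220. Normalized counts are scaled to the mean library. Standard errors are the log2 fold change divided by the root of F. RPKM used merged exon length. The fits were tested on simulated data.

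The members and lists were chosen with earlier results of these data known. The rule for naming took all 10 members, of each other list the genes with an adjusted p under 0.05 and, where fewer than 3 passed, those with the smallest p up to 3 in all, and Ctcf and Ctcfl. Of the repressors, 25 of 26 symbols matched 1 gene, and of the 2-cell-like markers 10 of 14. As alternatives, edgeR's exact test, DESeq2 1.42.0, scaling by DESeq2 size factors or library size, 2 other filters, a replicate block, a fold limit of 1.5 and the omission of each library were run. Promoter coordinates are of GRCm38.p6, gene coordinates of mm9, and the 2 were not combined.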

Additional observations from a re-analysis of the deposited data

How the results depend on the processing

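Of the 10 members, 9 stayed without a call under all 11 alternatives, and Stra8 passed in 7 of them, with an adjusted p from 0.000800 to 0.477. Its log2 fold change was 0.31 where it lost the call with no filter (adjusted p = 0.201) and 0.26 to 0.36 with 1 library left out. Directions held except for Sycp3, at 0.053 without MUT_CTCF replicate 1 (leave-one-out range -0.87 to 0.053), and Taf7l, at 0.020 without MUT_CTCF replicate 2 (-0.11 to 0.020). Leaving out a library leaves 1 in its group, which is then assumed to vary like the other group. The number of members called was 0 with no filter and 0 to 1 with 1 library left out. Calls over all genes went from 515 to 245 with DESeq2, 29 with no filter and 0 to 242 with 1 library left out: 193 without WT_CTCF replicate 1, 242 without WT_CTCF replicate 2, and 0 without MUT_CTCF replicate 1 or 2, where edgeR gave 1651 and 1585 genes at an unadjusted p under 0.05. At the criterion of the study they went from 212 to 126 with DESeq2, 117 with at least 10 reads in every library and 389 at a fold limit of 1.5. Calls in the other germline, repressor and retinoic acid lists went from 8 to 5 with DESeq2, 0 with no filter and 0 to 4 with 1 library left out. At the criterion of the study these lists went from 1 to 0 with DESeq2, no filter or at least 10 reads in every library, and 0 to 1 with 1 library left out. With no filter, 23739 genes were tested in place of 16264, and edgeR gave 2189 in place of 2483 at an unadjusted p under 0.05. The cause of these shifts was not tested. The fit with a replicate block called 698 genes, 191 at the criterion of the study, 1 member and 8 list genes, and changed no member's call. The replicate numbers do not mark a shared day or batch in the labels, and the differences between replicates were uncorrelated between the groups over genes (Pearson -0.020, Spearman 0.017).

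Depth limited Sycp1 and Sycp3 most, with at most 69 and 32 reads in any library. With 2 libraries per line, the p-values rest on the spread between these libraries and on the variance that edgeR shares across genes.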
